A study of Mus musculus with 21 samples.

Results

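Single-nucleotide variants (SNVs) of a tumour labelled A2iL-P14 were set against those of 3 tumours labelled A2iL-P9. A site was defined by chromosome, position, reference base and alternative base. The P14-only set held every site called in the A2iL-P14 tumour and in none of the A2iL-P9 tumours, and numbered 263 of the 11454 sites called in any of the 4 tumours (2.3%). The P9-constant set held every site called in all 3 A2iL-P9 tumours and not in the A2iL-P14 tumour, and numbered 270 (2.36%). A further 8282 sites (72.3%) were called in all 4 tumours, and all 18 lists of the series together held 19181 sites.

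The study compared the genomes of mouse embryonic stem cells (ESCs) grown in several media, and of tumours from mice made with such cells by tetraploid complementation, a procedure in which the injected ESCs form the body of the animal. A2iL stands for N2B27 medium on feeder cells with leukaemia inhibitory factor (LIF, 1000 IU) and a pair of inhibitors. These are 3 µM CHIR99021, which acts on GSK3, and 1.5 µM CGP77675, which acts on Src kinases. There was 1 A2iL-P14 library and there were 3 A2iL-P9 libraries. All were tumour DNA of the strain written C57BL6X129S6F1, and all were called against the same wild-type blood DNA (WT-2). The labels do not say what P14 and P9 stand for, which tumour type was sampled, or whether each library came from a mouse of its own. The series title names exome sequencing and its design text names ATAC-seq for the tumours, so the assay is not settled by these sources. With 1 A2iL-P14 library no test was made, and every difference below is between these 4 libraries only. Each A2iL-P9 library was compared with the other 3 in the same way, to set the A2iL-P14 counts beside those of other single tumours. Those other 3 include A2iL-P14, so the comparison values depend in part on it.

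In somatic calling, a tumour is compared with normal DNA, and variants seen in the tumour but not in the control are kept. An inherited variant passes the same filter when the control animal does not carry it, and a heterozygous one is then carried by about as many reads as the reference allele. A variant that arose during growth of the tumour can be in any part of its cells, so that its share of reads is often lower. dbSNP is the public catalogue of known variants, and an identifier in it marks a site that was already known to vary among mice.

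The 4 lists were of similar size. The A2iL-P14 tumour had 10105 calls at a median depth of 35 reads, against 9790, 9874 and 10060 calls at 28, 29 and 32 reads in A2iL-P9 replicates 1, 2 and 3. A dbSNP identifier was attached to 97.3% of the calls of the A2iL-P14 tumour, against 97.5, 97.2 and 97.2% in the A2iL-P9 tumours. The alternative-allele fraction, which is the share of the reads at a site that carry the alternative base, had a median of 0.435 in the A2iL-P14 tumour, against 0.432, 0.436 and 0.433 in the A2iL-P9 tumours. Calls rested on as few as 2 alternative reads. The lists hold no depth at sites that were not called, so a site missing from a list may have had too few reads there, and this could not be tested.

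Few sites lay close to a gene's start, but for those the bases around the change can be read from RefSeq promoter sequences (GRCm38.p6, the same assembly as mm10). Of 165 sites of the 4 tumours inside these windows, which run from 250 bases before to 50 bases after a start, 5 were P14-only and 5 were P9-constant. Of the sequences below, 4 belong to P14-only sites and 3 to P9-constant sites, and they are shown because they are the places where the difference between the A2iL-P14 and A2iL-P9 tumours can be seen in its sequence. Each runs 5′ to 3′ on the gene's strand, with the reference base of the varying site in capitals.
Clec2g, P14-only, C to T, chr6:128934348-128934376, plus strand: ccatatatttgtgcCtgtcagctttcaag
Pepd, P14-only, A to T, chr7:34912329-34912357, plus strand: ccaccacgcccattAaaaatcccgccctg
Pepd, P14-only, T to C, chr7:34912334-34912362, plus strand: acgcccattaaaaaTcccgccctggcccc
Olfr307, P14-only, A to C, chr7:86336438-86336466, minus strand: taataattttggatAataccactttcttt
Rab3gap1, P9-constant, G to A, chr1:127868710-127868738, plus strand: ccaccacccaccgaGgccccgcccacggc
Olfr1370, P9-constant, C to T, chr13:21073347-21073375, minus strand: tgtcttgactgtcaCagaaactccatact
4930584F24Rik, P9-constant, C to T, chr5:26493363-26493391, minus strand: agcctggatgtcccCatgattcttagaag

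The site before Clec2g, a C-type lectin-like receptor gene, lies 19 bases before its start and was carried by 4 of 27 reads in the A2iL-P14 tumour. Both sites before Pepd, the gene of the proline dipeptidase, lie 64 and 59 bases before its start, and each was carried by 2 of 7 reads. These 3 sites have a dbSNP identifier. The site before the olfactory receptor gene Olfr307 has none: 6 of 24 reads carried it, with a mean base quality of 15. Before Rab3gap1, a subunit of a GTPase-activating protein of vesicle traffic, the P9-constant site is 49 bases from the start and had fractions of 0.5, 0.5 and 0.625 in A2iL-P9 replicates 1, 2 and 3, at 8 reads in each. Before the olfactory receptor gene Olfr1370 the fractions were 0.353, 0.588 and 0.278, and at 4930584F24Rik they were 0.241, 0.175 and 0.118. All 3 P9-constant sites have an identifier.

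How many sites set 1 tumour apart was asked first. Sites of a single tumour numbered 263 in A2iL-P14, against 217, 240 and 297 in A2iL-P9 replicates 1, 2 and 3, so the A2iL-P14 count lay inside the range of the A2iL-P9 tumours. Sites called in the other 3 tumours but not in the one at hand numbered 270 for A2iL-P14, against 439, 370 and 295 for the A2iL-P9 tumours. Over the 4 libraries these counts ran opposite to the median depth: A2iL-P14, with 35 reads, lacked the fewest, and A2iL-P9 replicate 1, with 28, lacked the most. Sites shared by A2iL-P14 and exactly 1 A2iL-P9 tumour numbered 134, 153 and 169 for replicates 1, 2 and 3, whereas pairs of A2iL-P9 tumours shared 92 (replicates 1 and 2), 130 (1 and 3) and 103 (2 and 3) sites with no other.

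**Figure D1:**
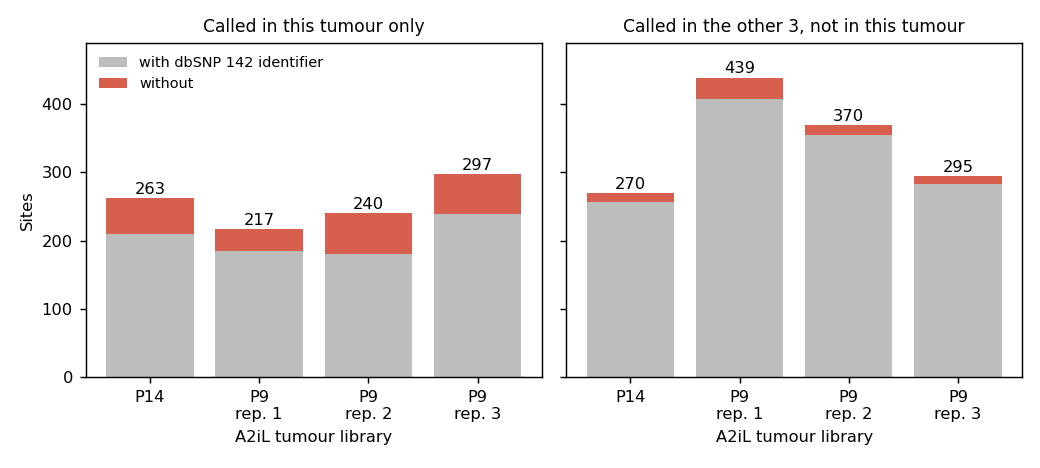
Number of sites (y axis) called in 1 A2iL tumour only (left) and called in the other 3 but not in that tumour (right), split by a dbSNP identifier, for 1 A2iL-P14 and 3 A2iL-P9 libraries. The A2iL-P14 tumour has 263 sites of its own, inside the A2iL-P9 range of 217 to 297, and lacks 270, fewer than the 295 to 439 of the A2iL-P9 tumours.

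Most P14-only sites were known variants. Of the 263, 210 had a dbSNP identifier (79.8%, Wilson 95% interval 74.6 to 84.3%), against 185 of 217 (85.3%), 181 of 240 (75.4%) and 239 of 297 (80.5%) among the sites of 1 A2iL-P9 tumour. Among the P9-constant sites, 256 of 270 had one (94.8%, interval 91.5 to 96.9%), against 92.9, 95.9 and 95.9% of the sites that A2iL-P9 replicates 1, 2 and 3 each lacked. At the sites called in all 4 tumours the share was 98.5%. Thus 53 sites without identifier were P14-only and 14 were P9-constant. Intervals here cover counting error only, and sequencing reads are not independent molecules.

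The P14-only sites were carried by few reads. Their median depth was 20 reads and their median fraction 0.2, against medians of 0.2, 0.216 and 0.214 for the sites of 1 A2iL-P9 tumour. Under 5 alternative reads stood behind 63.5% of them, and 49.0% had a fraction below 0.2. At the sites called in all 4 tumours, 5.17% in A2iL-P14 had under 5 alternative reads, against 8.98, 8.22 and 6.35% in the A2iL-P9 tumours. The P9-constant sites were intermediate. Their fraction had a median of 0.333 in each A2iL-P9 tumour, and 37.4, 38.1 and 28.1% of them rested on under 5 alternative reads in replicates 1, 2 and 3. The sites that A2iL-P9 replicates 1, 2 and 3 each lacked had median fractions of 0.341, 0.343 and 0.341, averaged over the libraries that called them. With at least 20 reads in A2iL-P14, 137 P14-only sites had a median fraction of 0.13. With at least 20 reads in every A2iL-P9 tumour, a stricter limit, 103 P9-constant sites had one of 0.198. The median depth of all P9-constant sites, averaged over the A2iL-P9 tumours, was 17.8 reads, about as low as that of the P14-only sites. Only 15 P14-only sites reached a fraction of 0.6, and the deepest of them had 13 reads.

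**Figure D2:**
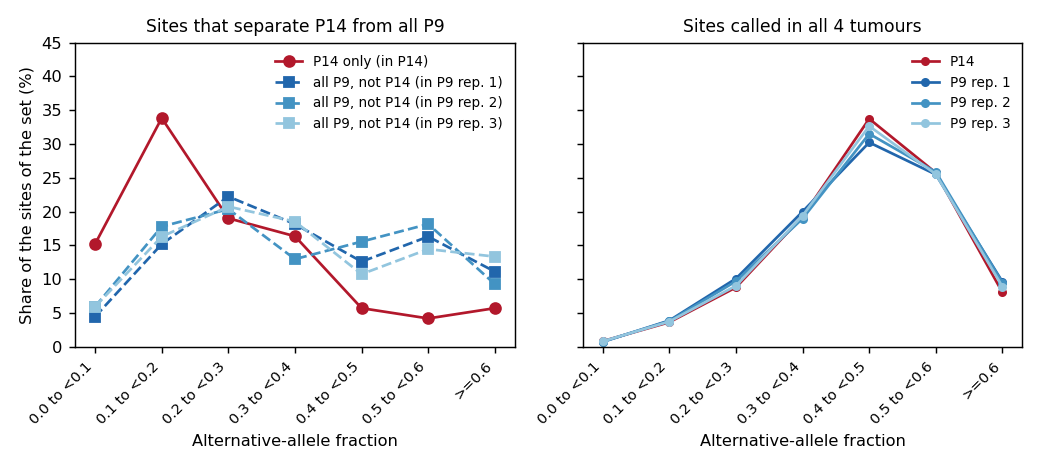
Share of sites (y axis, %) by alternative-allele fraction (x axis, bins of 0.1) for the P14-only sites in A2iL-P14 and the P9-constant sites in each A2iL-P9 library (left), and for the 8282 sites called in all 4 tumours (right). The P14-only sites peak between 0.1 and 0.2 with 33.8%, whereas the sites of all 4 tumours peak between 0.4 and 0.5 in every library.

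By place in the gene, 187 P14-only sites were intronic (71.1%), 31 were coding (11.8%), 13 lay in 3′ untranslated regions, 14 were intergenic and 1 was at a splice site. Of the P9-constant sites, 208 were intronic (77.0%), 30 coding (11.1%), 5 in 3′ untranslated regions, 12 intergenic and 1 at a splice site. Both sets thus had a smaller coding share than the 8282 sites called in all 4 tumours, of which 24.9% were coding. The coding share was 11.5, 13.8 and 16.5% for the sites of 1 A2iL-P9 tumour, a range that holds the P14-only value. It was 17.3, 15.9 and 16.9% for the sites that each A2iL-P9 tumour lacked, all above the P9-constant value. Sites outside annotated segmental duplications and repeats made up 81.7% of the P14-only set, against 82.5, 73.8 and 73.1% of the sites of 1 A2iL-P9 tumour, and 85.6% of the P9-constant set.

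Among the 6 classes of base change, named by the pyrimidine of the reference pair, C>T led in both sets, with 105 P14-only sites (39.9%) and 119 P9-constant sites (44.1%). Transitions, which exchange a purine for a purine or a pyrimidine for a pyrimidine, made up 65.8% of the P14-only sites (interval 59.9 to 71.2%), against 68.2, 59.6 and 65.3% of the sites of 1 A2iL-P9 tumour. They made up 78.1% of the P9-constant sites (interval 72.8 to 82.7%), against 69.9, 74.6 and 75.9% of the sites that each A2iL-P9 tumour lacked. The transition share of the P14-only sites split by identifier: it was 72.9% for the 210 with one and 37.7% for the 53 without. Of those 53, the 35 with a base quality of at least 30 had a transition share of 57.1%, and the 18 below it had 0 transitions.

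The P14-only sites without identifier held many T>G changes of low base quality. T>G made up 12.2% of the P14-only sites, against 5.99, 15.4 and 10.4% of the sites of 1 A2iL-P9 tumour, and 4.81% of the P9-constant sites. Of the 22 P14-only T>G sites without identifier, 18 had a mean base quality below 30, and these 18 were all the P14-only sites without identifier below that quality. Their qualities ran between 14 and 24 and their fractions between 0.111 and 0.351, and none was called in another tumour. The full list of A2iL-P14 held 19 such T>G calls, against 2, 16 and 8 in A2iL-P9 replicates 1, 2 and 3. Among the other tumours, 2iL-F-P9 had 2, 2iL-P9 had 8, and LCDM-P9 replicates 1 and 2 had 5 and 18. The number therefore varied between tumours of the same label, and A2iL-P14 stood near A2iL-P9 replicate 2. The Olfr307 site printed above is one of the 18, and an ESC library of the LCDM medium also had it. A like site of A2iL-P9 replicate 3, before the start of Lipo4, is shown for comparison.
Lipo4, T to G, chr19:33517820-33517848, minus strand: tatatgcaataaacTgagatacatactac

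**Figure D3:**
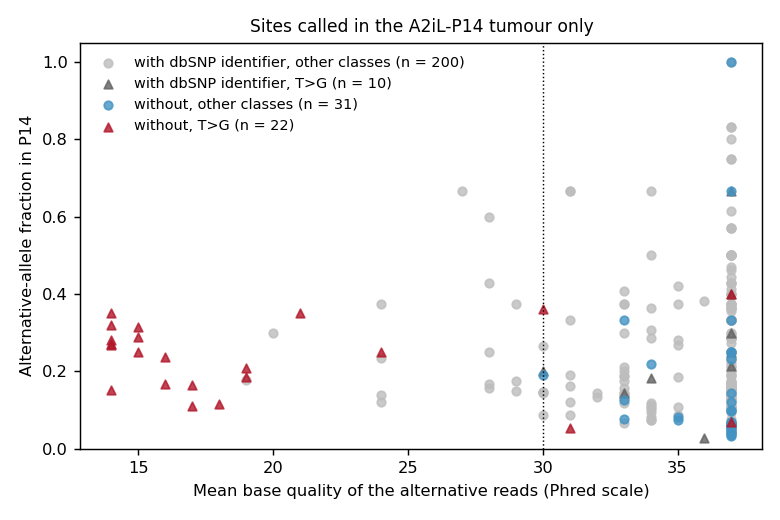
Alternative-allele fraction (y axis) against mean base quality (x axis, Phred scale) of the 263 sites called in the A2iL-P14 tumour only, by dbSNP identifier and base-change class; the dotted line marks a quality of 30. All 18 sites without identifier left of the line are T>G, at fractions between 0.111 and 0.351.

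Protein-changing sites were few in both sets. Of the 31 P14-only coding sites 20 were synonymous and 11 missense, so 35.5% changed the protein (interval 21.1 to 53.1%), against 36.0, 45.5 and 46.9% of the coding sites of 1 A2iL-P9 tumour. Of the 30 P9-constant coding sites 19 were synonymous and 11 missense (36.7%, interval 21.9 to 54.5%). At the 8282 sites called in all 4 tumours the share was 29.1%. Neither set held a stop-gain or stop-loss. Protein positions below are those the deposited annotation gives for the RefSeq transcript it lists first, and coordinates are mm10.

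The P14-only missense sites were carried by 2 to 12 reads each. Slfn9 E424K, in exon 4 of a Schlafen family gene (chromosome 11, 82982806), was carried by 12 of 185 reads (6.49%, interval 3.75 to 11.0%), and LCDM-P9 replicate 2 also had it. Siah1b D27G, in an E3 ubiquitin ligase gene of the X chromosome (164072003), was carried by 7 of 94 reads (7.45%, interval 3.65 to 14.6%). It stood in 2 other tumour lists and in 6 ESC lists, and the control had 1 alternative read among 96 there. Neither has a dbSNP identifier, and they were the only P14-only missense sites without one that had at least 20 reads, 5 alternative reads and a base quality of 30 outside duplications and repeats. No missense site with an identifier met the same limits.

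The other 9 P14-only missense sites are named for completeness, after their values were seen. Those without identifier were Olfr1395 L131R, in an olfactory receptor gene (5 of 27 reads at a base quality of 19), Pmfbp1 M666T, in a gene needed for sperm structure (4 of 21 reads), and Gm5458 R150H, in a segmental duplication (7 of 192 reads). Those with one were Espn A501V, in the actin-bundling protein espin of hair cells (2 of 4 reads), Gsap R31G, in the gamma-secretase activating protein (3 of 19), and BC048546 G1440D (4 of 35). The last of them were Mroh2a A1665S (4 of 64), Clec2g N12S (4 of 42) and, in a segmental duplication, the vomeronasal receptor change Vmn1r10 A124V (8 of 122). Clec2g thus had both this site and the promoter site printed above, and 2iL-P9 was the only other tumour to have either. At the splice site of Ttc28, a tetratricopeptide repeat gene (chromosome 5, 111284988), 4 of 42 reads carried the change (9.52%). The control had 1 alternative read at this splice site, at Mroh2a A1665S and at Vmn1r10 A124V.

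Of the 11 P9-constant missense sites 10 were known variants. Abcd2 L462F, in a peroxisomal fatty acid transporter (exon 4, chromosome 15, 91179100), had fractions of 0.355, 0.240 and 0.25 in A2iL-P9 replicates 1, 2 and 3 at 31, 51 and 28 reads. Ndufaf2 T159M, in an assembly factor of mitochondrial complex I (exon 4, chromosome 13, 108052737), had 0.167, 0.171 and 0.116 at 48, 35 and 43 reads. Both had at least 20 reads, 5 alternative reads and a base quality of 30 in each A2iL-P9 tumour, outside duplications and repeats. Abcd2 L462F was also called in 2 of the other tumours and Ndufaf2 T159M in 3. The control had 1 alternative read among 81 at Abcd2 L462F and 0 among 65 at Ndufaf2 T159M.

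A further 8 P9-constant missense sites were named after their values were seen, and 7 of them had an identifier. Pou6f1 L263F, in a POU-domain transcription factor, had 0.429, 0.583 and 0.333 in A2iL-P9 replicates 1, 2 and 3. Fgd2 E544D, in an exchange factor of Cdc42, had 0.583, 0.231 and 0.273. In the centriole protein gene Ccdc61, G394C had 0.636, 0.4 and 0.267. Depth at these 3 sites was between 9 and 15 reads. Celf3 P369S, in an RNA-binding splicing regulator, was in no other tumour and had 0.778, 0.667 and 1.000 at 9, 6 and 2 reads. Megf6 H1458R had mean 0.277 ± 0.0806 (SD, n = 3), and Zfp619 T1075M, in an annotated repeat of a zinc finger gene, 0.230 ± 0.0401. Zgrf1 S692G, in a helicase gene, had 0.172 ± 0.0505. Gm4884 I520K, in a segmental duplication and without identifier, had 0.061, 0.076 and 0.060 at 132, 146 and 133 reads. The control had 1 alternative read at Zgrf1 S692G and 1 at Gm4884 I520K. The splice site of Cyp2a22, a cytochrome P450 gene (chromosome 7, 26934125), lay in a segmental duplication, and the control had 1 alternative read there. It had 0.213, 0.102 and 0.183 at 61, 59 and 82 reads, and all 4 other tumours also had it.

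**Figure D4:**
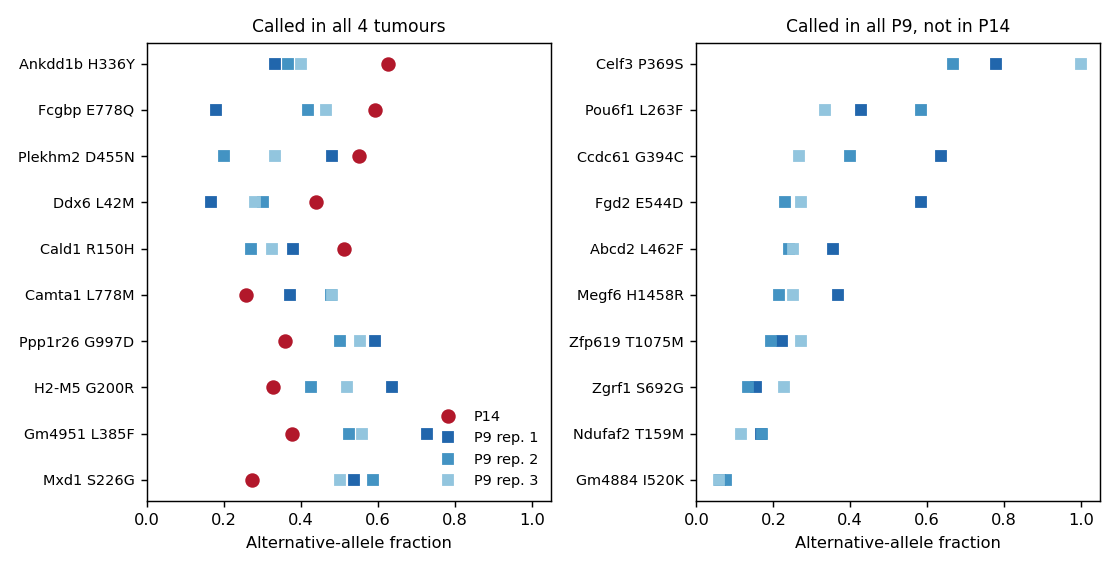
Alternative-allele fraction (x axis) at the 10 protein-changing sites of all 4 tumours that were named for the largest difference between A2iL-P14 and the A2iL-P9 mean (left) and at 10 P9-constant missense sites (right), 1 point per library. On the left the A2iL-P14 point lies outside the A2iL-P9 points by choice; on the right the A2iL-P9 fractions run between 0.060 and 1.000.

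Sites without identifier and with good support were the next to be examined. With at least 20 reads, 5 alternative reads and a base quality of 30 outside duplications and repeats, 13 of the 53 P14-only sites without identifier were left, and 9 of these were called in no other tumour. The same limits left 10, 11 and 16 sites of 1 tumour in A2iL-P9 replicates 1, 2 and 3, of which 9, 8 and 2 were in no other tumour. The A2iL-P14 count was thus between those of the A2iL-P9 tumours, and the count in no other tumour equalled that of replicate 1. Fractions of the 13 ran between 0.033 and 0.361 with a median of 0.065. These genes were named after their values were seen. An intronic T>G site of Chfr, a ubiquitin ligase of a mitotic checkpoint, had the highest fraction (chromosome 5, 110143754), with 22 of 61 reads (36.1%, interval 25.2 to 48.6%) and a base quality of 30. A second Chfr T>G site at 110143756 was carried by 21 of 60 reads at a base quality of 21, so both changes lay next to each other and 1 of them was below the quality limit. Sun3, a nuclear envelope gene, had an intronic T>C change in 9 of 41 reads (22%, interval 12 to 36.7%). Adam17, the protease that sheds tumour necrosis factor, had one in 9 of 63 reads (14.3%, interval 7.70 to 25%). A synonymous change of Prkca, protein kinase C alpha, was carried by 6 of 99 reads (6.06%). At all of these the control had no alternative read.

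Sites of both sets were spread over many genes. The P14-only sites fell in 196 genes, 165 of them with 1 site, and the P9-constant sites in 207 genes, 170 of them with 1 site. Gene overlap was not computed for the sets of each A2iL-P9 tumour, so the next count has no background beside it. The P14-only and P9-constant sets had 26 genes in common, 13.3% of the P14-only and 12.6% of the P9-constant genes. Ly75, the endocytic receptor DEC-205 of dendritic cells, was one of them, with 3 P14-only and 4 P9-constant intronic sites among 20 in the 4 tumours. Its P9-constant sites at 60368638 and 60369006 on chromosome 2 had fractions of 0.412, 0.440 and 0.521, and of 0.512, 0.488 and 0.340, in A2iL-P9 replicates 1, 2 and 3. Depth there was between 25 and 53 reads. Over all 4 P9-constant sites of Ly75 the fractions ran between 0.2 and 0.521, at 17 to 53 reads. The P9-constant site at 60351955 lay beside the P14-only site at 60351951. The P14-only sites of Ly75 had between 15 and 22 reads and fractions of 0.136, 0.25 and 0.2.

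With olfactory receptor, vomeronasal receptor and Gm genes each joined to a family and no other family joined, the P14-only set was led by Gm gene models (5 sites), and by Cers5, Mcm6, Prex1 and vomeronasal receptor genes (4 each). In Cers5, a ceramide synthase gene, 3 intronic sites lay within 9 bases of chromosome 15 at 99739385, and were carried by 5 of 41, 6 of 42 and 7 of 43 reads. Mcm6, a subunit of the replicative helicase, had a pair of intronic sites at 0.130 and 0.145 (54 and 55 reads) and another at 0.4 and 0.571 (5 and 7 reads). All 4 sites of Prex1, an exchange factor of Rac, had at most 11 reads. The P9-constant set was led by Gm gene models (6 sites), by Dscaml1, a cell adhesion gene, and Ly75 (4 each), and by 6 genes with 3 each. Among those were Col4a1 and Lama3, which encode a collagen and a laminin of basement membranes, Matn2, a matrilin, Nt5c3, Pcsk7 and Scfd1. Fractions at the 4 Dscaml1 sites ran between 0.143 and 0.333 over the A2iL-P9 tumours, at 21 to 43 reads. All leading sites but some of the Gm gene models have a dbSNP identifier.

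Many sites had company. Joined over gaps of at most 1 kb, 61 of the 263 P14-only sites formed 28 clusters, and 55 of the 270 P9-constant sites formed 27, none with more than 3 sites. Clusters were not counted for other sets of sites, so these counts cannot be called particular to the P14-only or P9-constant sites. Within 100 bases of 90 P14-only sites (34.2%) an A2iL-P9 tumour had another call, and within 100 bases of 83 P9-constant sites (30.7%) A2iL-P14 had one. For the tumours of A2iL-P9 the first share was 41.9, 34.2 and 32.7%. At 39 P14-only sites a site called in all 4 tumours lay within 100 bases, and the nearest such site was taken as the neighbour. There, the P14-only site had a median fraction of 0.2 at 18 reads, against 0.319 at 40 reads for its neighbour in the same library, and it was the lower in 32 of 39 pairs. At the 72 P9-constant sites with such a neighbour, the neighbour was called in A2iL-P14 with a median of 39 reads and a fraction of 0.307. These neighbours were chosen among sites called in all 4 tumours, so they were read in A2iL-P14 by construction. They give no depth for the missing site itself, which is not known.

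The genes of 8 lists were looked up: DNA methylation and chromatin, DNA repair and checkpoint, mismatch repair, base excision repair and replicative polymerases, p53 and cell cycle, pluripotency, telomere maintenance, signalling through Src, GSK3, Wnt and MAPK, and tumour suppressors and oncogenes. Their 285 genes held 251 sites of the 4 tumours. Of these, 1 was P14-only (0.398%, with 2.3% over all sites) and 3 were P9-constant (1.20%, with 2.36% over all sites), and none of the 4 changed a protein. The P9-constant sites were intronic and lay in Ercc2, a helicase of nucleotide excision repair (0.341, 0.194 and 0.214 in A2iL-P9 replicates 1, 2 and 3), in Wrn, the Werner syndrome helicase (0.5, 0.455 and 0.5), and in Dppa4, a gene of pluripotent cells (0.611, 0.438 and 0.444). All 3 have a dbSNP identifier. No site of either set lay in the lists for DNA methylation and chromatin, p53 and cell cycle, telomere maintenance, signalling, or tumour suppressors and oncogenes. These lists held only 47, 17, 7, 11 and 25 sites of the 4 tumours. At shares of 2.3 and 2.36% over all sites, an absence from lists this short says little about these genes.

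By chromosome, P14-only sites took the highest share of the sites on X, where 1 of 11 was P14-only, and then on chromosome 11 (15 of 355, 4.23%, interval 2.58 to 6.85%) and chromosome 6 (21 of 502, 4.18%, interval 2.75 to 6.31%). On chromosome 11 the sites of 1 A2iL-P9 tumour took 2.54, 2.25 and 1.13%, and on chromosome 6 1.99, 2.39 and 3.78%. The lowest P14-only share was on chromosome 17, with 1.41%. P9-constant sites took the highest share on chromosome 13, with 3.57%, and the lowest of an autosome on chromosome 19, with 0.592% (1 of 169), and none of the 11 sites on X. The A2iL-P9 tumours had their own extremes of similar size: replicate 3 had 5.14% of the sites on chromosome 12 to itself, and replicate 1 lacked 5.98% of those on chromosome 6.

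**Figure D5:**
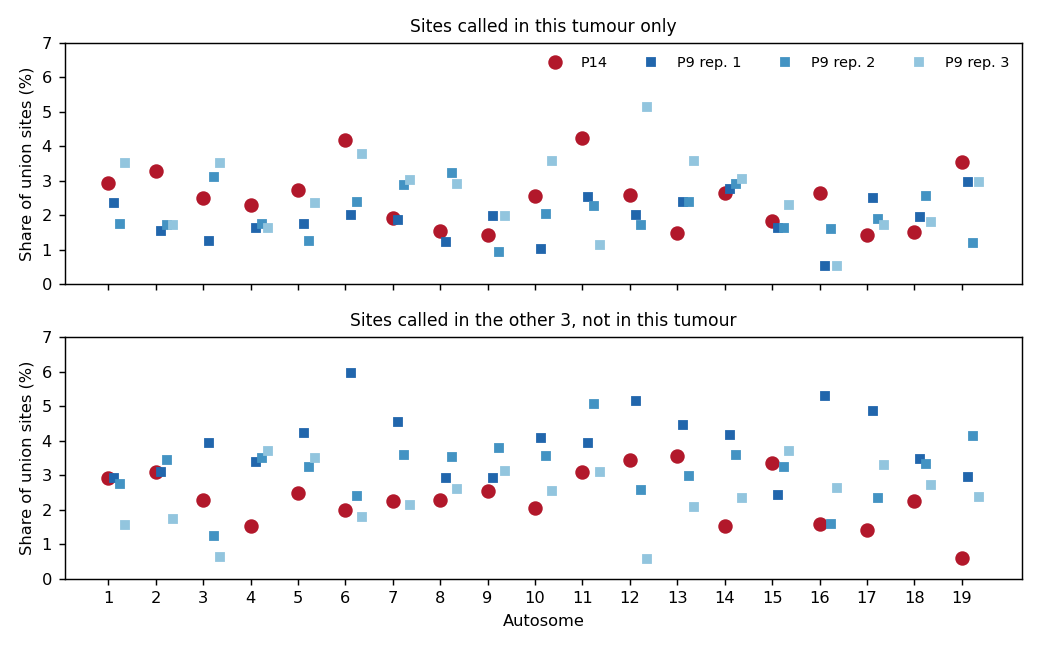
Share of the sites of the 4 A2iL tumours on each autosome (x axis) that were called in 1 tumour only (top, y axis in %) or in the other 3 but not in that tumour (bottom), with 1 point per library. A2iL-P14 is highest of the 4 libraries on chromosome 11 in the top panel with 4.23%, and A2iL-P9 replicate 1 has the highest point of the bottom panel, 5.98% on chromosome 6.

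At the 8282 sites called in all 4 tumours the fractions were close together. Their median was 0.449 in A2iL-P14, against 0.444, 0.450 and 0.450 in A2iL-P9 replicates 1, 2 and 3. The fraction in A2iL-P14 minus the A2iL-P9 mean had a median of -0.0017, with quartiles at -0.062 and 0.0607. At the 5486 sites with at least 20 reads in each tumour, A2iL-P14 was above all A2iL-P9 tumours at 1302 (23.7%) and below all of them at 1209 (22%), and only 25 differed from the A2iL-P9 mean by over 0.25. Unless values tie, some tumour has to be the highest and some tumour the lowest at each site. The same counts were not made for an A2iL-P9 tumour, so these cannot be called particular to A2iL-P14. The median fraction per autosome was between 0.422 and 0.481 in A2iL-P14, against 0.4 to 0.476 over the A2iL-P9 tumours. It lay above the A2iL-P9 range on 5 autosomes, below it on 4 and inside it on 10, again without the same count for an A2iL-P9 tumour. The largest difference from the A2iL-P9 mean was 0.030, on chromosome 13.

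The protein-changing sites of all 4 tumours with the largest differences were named by that difference, so their values are a description. Ankdd1b H336Y, in an ankyrin repeat gene, had a fraction of 0.625 at 32 reads in A2iL-P14, against 0.333, 0.367 and 0.4 in A2iL-P9 replicates 1, 2 and 3. Fcgbp E778Q, in an IgG Fc binding protein of mucus, had 0.591, against 0.179, 0.417 and 0.464. Plekhm2 D455N, in an adaptor of lysosome transport, had 0.550, against 0.480, 0.2 and 0.333. Ddx6 L42M, in an RNA helicase of processing bodies, and Cald1 R150H, in caldesmon, were higher by 0.189 and 0.188. In the other direction, Mxd1 S226G, in a partner of Max that opposes Myc, had 0.273 at 33 reads in A2iL-P14, against 0.538, 0.586 and 0.5 in the A2iL-P9 tumours. Gm4951 L385F, in a segmental duplication, had 0.375, against 0.727, 0.524 and 0.558, and the class I gene change H2-M5 G200R had 0.327, against 0.636, 0.425 and 0.520. Ppp1r26 G997D and the transcription factor change Camta1 L778M differed by -0.191 and -0.185. All 10 have a dbSNP identifier. Among 479 protein-changing sites with 20 reads in each tumour, 2 differed by over 0.25.

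The 4 tumours held 7 stop changes, of which 4 stop-gains were called in all 4 tumours. Gpx6 Q217X, in a glutathione peroxidase gene, had 0.5 in A2iL-P14, against 0.533, 0.567 and 0.333 in A2iL-P9 replicates 1, 2 and 3. Dok2 K412X, in a docking protein below tyrosine kinases, had 0.529, against 0.553, 0.444 and 0.462. Sub1 R47X, in a transcriptional coactivator gene, had 0.173, against 0.208, 0.2 and 0.196. Herc6 Q1002X, in a HECT domain ubiquitin ligase gene, had 0.364, against 0.149, 0.364 and 0.213. For Gpx6, Dok2 and Herc6 the A2iL-P14 fraction lay within the range of the A2iL-P9 tumours, and for Sub1 it lay below that range, with a difference of -0.028 from their mean. The other 3 changes were missing from 1 or more A2iL-P9 tumours. Wdr11 W802X, in a WD repeat gene, was called only in A2iL-P9 replicate 3, in 24 of 125 reads. Mroh2a W462X had 0.043 in A2iL-P14, against 0.065 and 0.057 in A2iL-P9 replicates 1 and 3, and was not called in replicate 2. The stop-loss Vmn2r79 X852L, in a vomeronasal receptor gene, had 0.513 in A2iL-P14, against 0.417 and 0.429 in A2iL-P9 replicates 2 and 3, and was not called in replicate 1.

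The other 4 tumour lists show where else the sites were found. Of the 263 P14-only sites, 144 (54.8%) were in at least 1 of them: 91 in 2iL-P9, 59 and 9 in LCDM-P9 replicates 1 and 2, and 68 in 2iL-F-P9. For the sites of 1 A2iL-P9 tumour the share was 47.5, 51.7 and 54.9%. Of the 270 P9-constant sites 260 (96.3%) were in at least 1, with 223 in 2iL-P9, 210 and 12 in LCDM-P9 replicates 1 and 2, and 187 in 2iL-F-P9. The sites that each A2iL-P9 tumour lacked gave 96.6, 97.6 and 95.3%. LCDM-P9 replicate 2 had a much shorter list, of 3634 sites. Of the 53 P14-only sites without identifier 41 were in no other tumour, whereas 1 of the 14 P9-constant ones was.

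In the 10 ESC lists, from which sites with an identifier are absent, 9 of the 53 P14-only sites without identifier and 11 of the 14 P9-constant ones were found. The ESC library A2iL 3 held 4 sites of each set, and A2iL 5 held 2 P14-only and 5 P9-constant sites. ESC libraries of the other media held 2 to 3 P14-only and 4 to 6 P9-constant sites, so the A2iL counts lay within these ranges except for the 4 P14-only sites of A2iL 3. A P9-constant intronic site of Dennd3, in an annotated repeat, was in all 10 ESC lists, with fractions of 0.6, 0.4 and 0.5 at 5, 10 and 8 reads in A2iL-P9 replicates 1, 2 and 3. So was a P9-constant intergenic site (chromosome 6, 90845264), with fractions of 0.033, 0.043 and 0.037 at 239, 276 and 298 reads.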

How the data were processed

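The authors' deposited lists give, per the file headers, the genotype, reads per allele, mean base quality, depth, alternative-allele fraction and somatic status of each SNV in a library and its control, with gene, consequence, duplication, repeat and dbSNP annotation. Per the submitters' processing notes, BWA, SAMtools and Picard were used with mm10. No source used here names the SNV caller. At 54595 calls shared by pairs of the 4 A2iL tumour lists the control values were identical, so 1 control served all. The control held at most 1 alternative read per call. The headers of the 2iL-P9 and 2iL-F-P9 lists carry other names than the labels, and their samples follow the record that links files to samples.

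Sites were joined in Python 3.11.15 with pandas 2.3.3, with no filter unless stated, and the joining was tested on simulated lists. Named sites were stop and splice changes, missense sites passing 20 reads, 5 alternative reads, base quality 30 and unique sequence, protein-changing sites of the 8 gene lists, the 5 genes with most sites (olfactory receptor, vomeronasal receptor and Gm genes joined), the shared protein-changing sites with the 5 largest differences each way, and the chromosomes with extreme shares. The sites and lists were chosen with earlier results of these data known. Intervals are Wilson 95%. No test was made, since A2iL-P14 has 1 library. Alternatives were depth, alternative reads, base quality, unique sequence, no alternative read in the control, no call within 10 bp, and leaving out each A2iL-P9 library. For 1 P9-constant missense site and 1 P14-only intronic site of the gene lists, the values are not reported here.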

Additional observations from a re-analysis of the deposited data

How the results depend on the processing

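Of 96 values recomputed under 9 settings for 11 results, 63 moved by less than 1 SD of the A2iL-P9 tumours, their interval or 1.5 times. A further 33 moved by more and 0 were counted as reversed, although 1 of the moved values changed sign, as given below. Limits on reads and base quality were set in A2iL-P14 for P14-only sites and in every A2iL-P9 tumour for P9-constant sites, so they are stricter for the latter. With at least 20 reads, 137 P14-only and 103 P9-constant sites were left, with dbSNP shares of 67.9 and 88.3%, median fractions of 0.130 and 0.198 and, for P14-only sites, a transition share of 59.1%. At least 5 alternative reads left 96 and 105 sites, with dbSNP shares of 64.6 and 88.6% and median fractions of 0.163 and 0.320. A base quality of 30 gave a dbSNP share of 84.8% for P14-only sites and a median fraction of 0.336 for P9-constant sites. With no alternative read in the control the median fractions were 0.25 and 0.399, and the dbSNP share of P9-constant sites 97.0%. Without sites that had a call within 10 bp in the other lists the medians were 0.211 and 0.337. At sites called in all 4 tumours the median difference was -0.0017 with no filter. It was 0.00067 with at least 20 reads, so its sign changed, and 0 without A2iL-P9 replicate 2. Leaving out each A2iL-P9 tumour in turn gave 397 to 432 P14-only sites (397 without replicate 1, 416 without replicate 2, 432 without replicate 3), with dbSNP shares of 81.6 to 85.6% and median fractions of 0.211 to 0.231. It gave 362 to 400 P9-constant sites with median fractions of 0.303 to 0.3125. At sites called in all 4 tumours it gave median differences of -0.002 to 0. Fewer lists to be absent from or present in raise both counts by construction. For the settings that keep fewer sites the cause of each moved share was not tested. No paired analysis was possible because A2iL-P14 has 1 library and no result comes from a test.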
